A study of Danio rerio with 94 samples.

Results

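The CYP1 enzymes and the genes of the aryl hydrocarbon receptor (AHR) were followed in zebrafish embryos exposed to naphthalene or 1 of 21 alkyl-substituted naphthalenes. Members were all rows of the deposited read table whose symbol began with CYP1A to CYP1D, AHR or TIPARP, which gave 10 of 3068 genes. They were 5 CYP1 enzymes (CYP1A, CYP1B1, CYP1C1, CYP1C2 and CYP1D1), 2 receptors (AHR2 and AHR1B), 2 receptor repressors (AHRRA and AHRRB) and TIPARP. All 10 symbols matched a RefSeq gene, and 9 matched an Ensembl identifier. In the RefSeq annotation of a later assembly than the one used for these data, CYP1C1 and CYP1C2 lie next to each other, as do AHR1B and AHR2.

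The AHR is a ligand-activated transcription factor that binds planar aromatic compounds, pairs with ARNT in the nucleus and turns on genes of xenobiotic metabolism. CYP1A is its most widely used target gene, and its enzyme oxidizes aromatic hydrocarbons. In zebrafish, AHR2 carries most of the response to dioxin. The AHR repressors and TIPARP, itself an AHR target, limit the response in a feedback loop known mainly from mammals.

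Wild-type embryos of the tropical 5D line were exposed to 20 µM of a chemical in sealed glass vials with DMSO as the vehicle from 6 to 24 hours post fertilization (hpf), moved to clean medium and collected whole at 48 hpf. The 22 exposed groups had 4 pools each, a pool being 6 embryos of normal appearance grouped by vial. By the methods, 2 of 6 vials per treatment were kept for morphology and 5 pools were collected, so not every collected pool had a vial of its own. Whether any of the pools used here shared a vial is not said. Each of 2 exposure days held 11 of the chemicals, and the 4 pools were chosen from 5 by the concentration of their RNA and how precisely it was read. The control was 5 pools exposed to DMSO alone, 2 of exposure day 1 and 3 of exposure day 2, since the authors removed control day 1 pool B as an outlier. RNA was taken 24 h after the chemical had been withdrawn, so the levels describe that time and not the exposure itself. Embryos that looked abnormal were not sampled, and in whole embryos a change in the number of cells that express a gene and a change in RNA per cell cannot be told apart.

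Expression was measured by TempO-Seq, in which pairs of detector oligos are ligated on their target RNA and sequenced. Read numbers here are counts recovered from the deposited values, after the authors' correction for exposure day, and not reads as sequenced. Recovered totals were 7.21 to 16.5 M reads per pool (median 10.3 M), so that 1 read was worth 0.0696 to 0.148 CPM (counts scaled to a common library size). A log2 fold change (log2FC) below is the difference between exposed and control means of the deposited log2 CPM, tested with limma over all genes. A gene counted as called when its adjusted p (Benjamini-Hochberg, over all 3068 genes) did not exceed 0.05 and its mean changed by 1 log2 unit or more. The 95% intervals are those of limma and reflect the spread between pools. Limits set by a count of 0 cover counting error only and take the corrected counts as if they had been sequenced.

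CYP1A was the member with the most calls. It was called in 3 of the 22 chemicals, 1,2-dimethylnaphthalene, 2,6-diisopropylnaphthalene and 1,7-dimethylnaphthalene, and was higher than in control pools in all 3. CYP1C1 was called in 1,4-dimethylnaphthalene, where it was lower. These 4 were the calls among 220 member by chemical tests, against 0.324% called among the tests of all genes. With the adjusted p alone 7 member tests passed, against 1.2% of the tests of all genes. The 2 members called at least once stood among 10, where 3.42% of all genes were called at least once.

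In 1,2-dimethylnaphthalene, CYP1A had 51.7, 48.4, 39.6 and 46.8 CPM in the 4 pools, from 391 to 502 reads. The control pools had 0 and 2.36 CPM on day 1 and 0.863, 8.81 and 7.09 CPM on day 2, from 0 to 86 reads. All 4 exposed pools were above all 5 control pools, a separation seen in this direction for 2.71% of genes with this chemical. The mean was 46.6 ± 5.10 CPM in 1,2-dimethylnaphthalene and 3.83 ± 3.91 CPM in the control (SD, n = 4 and 5), a ratio of 12.2. The log2FC was 4.53 (standard error 0.91, 95% interval 2.71 to 6.35, adjusted p = 0.00233 by limma), 1 of 11 genes called with this chemical (0.359% of genes).

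The 1,2-dimethylnaphthalene call held without any single pool, with adjusted p from 0.000531 to 0.0258. In a fit of only the 2 compared groups the log2FC was the same and the call was lost (adjusted p = 0.123 by limma). The exact permutation test gave a two-sided p of 0.0159, or 0.349 adjusted over the 22 chemicals. The smallest p that its 126 arrangements allow is 0.00794. No chemical could pass this adjustment on its own, so the adjusted value decides nothing here. Set against the 2 control pools of its own exposure day, the log2FC was 6.06 (adjusted p = 0.00123 by limma). 1 of these 2 pools had 0 reads, so its log2 value was set by the prior count. Without that pool the log2FC against the remaining control pools of both days was 3.68.

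In 2,6-diisopropylnaphthalene the pools were less alike, with 48.0, 23.6, 36.9 and 6.57 CPM of CYP1A, from 71 to 449 reads. The lowest of them, pool E, lay below the 2 highest control pools (8.81 and 7.09 CPM). The mean was 28.8 ± 17.8 CPM in 2,6-diisopropylnaphthalene and 3.83 ± 3.91 CPM in the control (SD, n = 4 and 5). The log2FC was 3.52 (standard error 0.91, 95% interval 1.70 to 5.34, adjusted p = 0.0402 by limma), 1 of 5 genes called with this chemical (0.163%). The call was lost without exposed pools B, C or D or control day 1 pool A, day 1 pool C or day 2 pool A, with log2FC between 2.67 and 3.60 and adjusted p between 0.0526 and 0.201. Against the 3 control pools of the same day the log2FC was 2.50 (adjusted p = 0.339).

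In 1,7-dimethylnaphthalene the pools had 11.8, 15.0, 18.4 and 16.4 CPM of CYP1A, all above the 5 control pools, as for 2.18% of genes with this chemical. The mean of 15.4 ± 2.77 CPM in 1,7-dimethylnaphthalene was 4.03 times the 3.83 ± 3.91 CPM of the control (SD, n = 4 and 5). The log2FC was 2.93 (standard error 0.91, 95% interval 1.11 to 4.75, adjusted p = 0.0377 by limma), 1 of 41 genes called with this chemical (1.34%). An exact permutation test of this difference gave a two-sided p of 0.0317, where the smallest that 126 arrangements allow is 0.00794. Adjusted over the 22 chemicals it was 0.349, an adjustment that no chemical could pass on its own. Leaving out any exposed pool ended the call (adjusted p 0.0581 to 0.0894), as did leaving out control day 1 pool A, day 1 pool C or day 2 pool A (log2FC 2.08 to 3.01, adjusted p 0.0535 to 0.218). Against the 3 control pools of the same day it was 1.91 (adjusted p = 0.392).

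**Figure D1:**
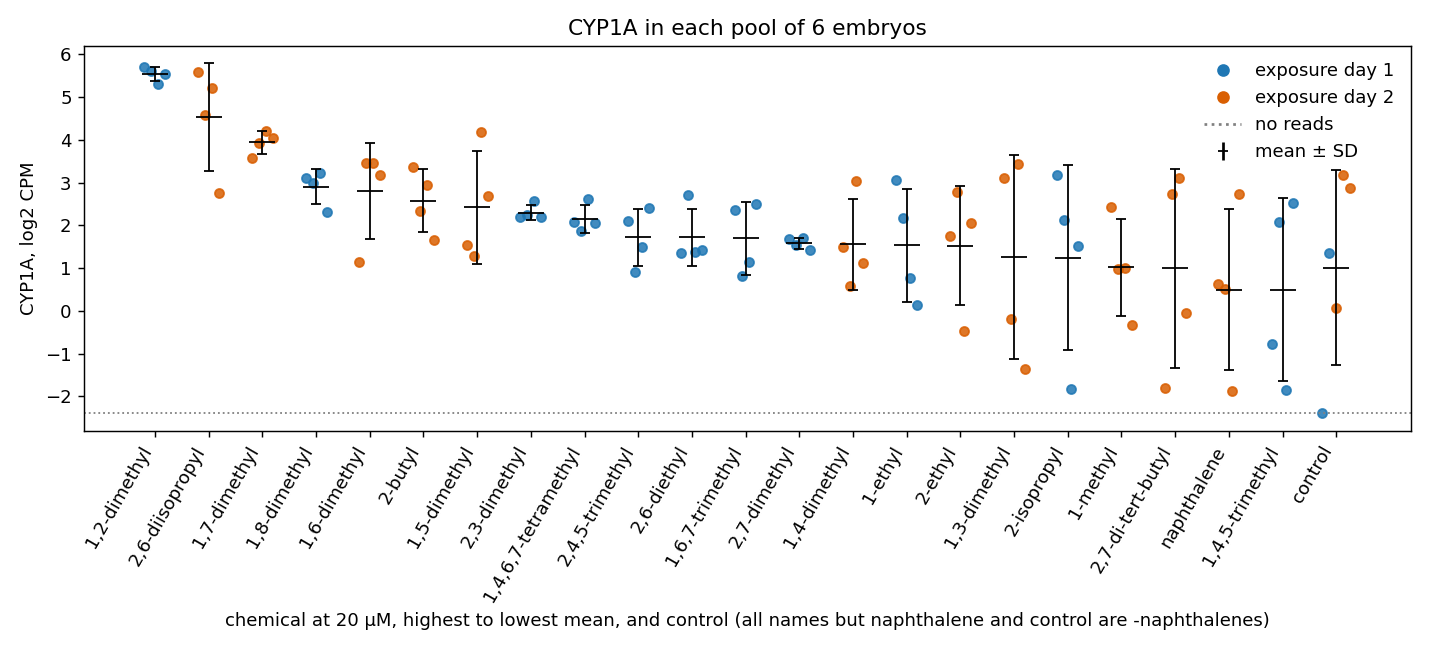
CYP1A in each pool, in log2 CPM, for the 22 chemicals ordered by their mean and the control at the right. Points are pools coloured by exposure day, black bars are the mean and SD, and the dotted line is the value of a pool with no reads. The 4 pools of 1,2-dimethylnaphthalene (5.31 to 5.70) and of 1,7-dimethylnaphthalene (3.58 to 4.22) lie above all 5 control pools (−2.39 to 3.17).

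The control pools themselves were spread over a wide range of CYP1A. Control day 1 pool A had 0 reads of CYP1A, which allows up to 3 reads, or 0.358 CPM, and was the only pool of the 93 without any. The mean log2 CPM was 2.04 in the control pools of day 2 and −0.52 in those of day 1, a difference of 2.56 (standard error 1.71, adjusted p = 0.766 by limma, n = 3 and 2). The SD of CYP1A within groups was 1.37 on the log2 scale, against a median of 0.50 over all genes, and 519 of the 3068 genes had a larger one.

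The other 19 chemicals held CYP1A at means between 0.50 and 2.91 log2 CPM, against 1.01 in the control. The 3 lowest were the 1,4,5-trimethyl isomer, naphthalene and 2,7-di-tert-butylnaphthalene. In the 1,4,5-trimethyl isomer the pools had 0.393, 4.05, 0.0883 and 5.52 CPM. Naphthalene had 1.36, 1.22, 0.0830 and 6.46 CPM, and 2,7-di-tert-butylnaphthalene had 0.0966, 6.44, 8.41 and 0.770 CPM. These 12 pools lay within the span of the control pools, and their log2FC were −0.52, −0.51 and −0.02, each with a standard error of 0.91.

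Below the 3 called chemicals came 1,8-dimethylnaphthalene (log2FC 1.90, 95% interval 0.08 to 3.71, adjusted p = 0.367) and 1,6-dimethylnaphthalene (log2FC 1.80, 95% interval −0.02 to 3.62, adjusted p = 0.544, both by limma). With an interval of ± 1.82 on the log2 scale for every chemical, a smaller change of CYP1A was not detectable by this fit, even before adjustment. The interval is the same for all because the error is pooled over the groups. Group SDs ran from 0.13 in 2,7-dimethylnaphthalene to 2.39 in 1,3-dimethylnaphthalene. The control SD of 2.27 was above the pooled 1.37, so intervals against the control, those of the calls included, may be too narrow. The mean log2 CPM was above that of the control, which includes the pool at 0 reads, in 19 of 22 chemicals, and 14.0% of all genes were above it in at least as many. The mean CPM was above that of the control in 12 chemicals and below it in 10, with a lowest ratio of 0.596 in naphthalene. All 22 comparisons share the same 5 control pools. Over the 23 groups ordered by their mean CYP1A, 0 of 22 gaps between neighbours had a 95% interval that left out 0, and the largest gap was 1.03. Sorting by these same means keeps such gaps small, so they cannot show whether groups further apart differ.

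CYP1A was also the 1 member whose level differed among the 23 groups as a whole (moderated F test by limma, adjusted p = 0.00215), where 7.95% of all genes passed. Between the control pools of day 2 and day 1, 0 members passed the adjusted p by limma or by voom, and CYP1C2 was at an unadjusted p under 0.05 by limma (difference −0.96, adjusted p = 0.571). In the F test AHR1B came next with an adjusted p of 0.0547, followed by CYP1C1 with 0.0996.

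CYP1B1, an enzyme that metabolizes steroids, retinoids and polycyclic aromatic hydrocarbons, was called in 0 of 22 chemicals. It had reads in every pool, with 0.923 to 21.4 CPM in the exposed pools (median 10.6) and 1.65 to 12.7 CPM in the control pools (median 7.77). Its log2FC was above 0 in 19 chemicals, with a median of 0.70, where 14.0% of all genes were above 0 in at least as many. At an unadjusted p under 0.05 CYP1B1 was higher in 7 chemicals and lower in 0. voom, which weights reads by their precision, also called it in 0 chemicals, with 7 at an unadjusted p under 0.05. The highest was 1.25 in 1,8-dimethylnaphthalene (standard error 0.42, adjusted p = 0.127 by limma). All these log2FC share the same 5 control pools, 1 of which held only 14 reads of CYP1B1. For this and the other members, the share of all genes with as many chemicals at an unadjusted p under 0.05 was not computed.

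In 1,2-dimethylnaphthalene CYP1B1 averaged 14.3 ± 3.58 CPM and in the control 7.88 ± 4.54 CPM (SD, n = 4 and 5; log2FC 1.09, adjusted p = 0.178 by limma). In 1,7-dimethylnaphthalene it averaged 14.2 ± 3.03 CPM against the same control (log2FC 1.09, adjusted p = 0.109 by limma). In 2,6-diisopropylnaphthalene it averaged 11.3 ± 7.23 CPM (log2FC 0.57, 95% interval −0.26 to 1.41). All CYP1B1 pools of 1,4-dimethylnaphthalene, at 13.5 to 20.3 CPM, lay above the control pools, at 1.65 to 12.7 CPM (log2FC 1.199, adjusted p = 0.155 by limma). No other chemical showed this separation of CYP1B1, and CYP1A was not called there (log2FC 0.54). The share of all genes so separated in 1,4-dimethylnaphthalene was not computed. It was 2.71% in 1,2-dimethylnaphthalene and 2.18% in 1,7-dimethylnaphthalene, so a separation of this kind was not rare.

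CYP1C1, an enzyme of a subfamily that mammals lack, had 8.07, 3.43, 7.05 and 18.3 CPM in the pools of 1,4-dimethylnaphthalene, against 16.1, 28.4, 14.9, 23.9 and 27.0 CPM in the control pools. Pools A, B and C lay below every control pool and pool E lay among them. The log2FC was −1.43 (standard error 0.40, 95% interval −2.22 to −0.64, adjusted p = 0.0418 by limma), 1 of 15 genes called with this chemical (0.489%). The call was lost without exposed pools A, B or C or without control day 1 pools A or C or day 2 pools B or C, with log2FC from −1.53 to −1.06 and adjusted p from 0.0509 to 0.239. Against the controls of the same day the log2FC was −1.43 (adjusted p = 0.135).

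CYP1C1 was called in 0 of the 3 chemicals in which CYP1A was called, and voom called it in 0 of all 22 (5 at an unadjusted p under 0.05). Its log2FC was 0.32 in 1,2-dimethylnaphthalene (95% interval −0.47 to 1.11), 0.25 in 2,6-diisopropylnaphthalene (95% interval −0.54 to 1.04) and −0.995 in 1,7-dimethylnaphthalene (95% interval −1.78 to −0.21, adjusted p = 0.129 by limma). In 1,2-dimethylnaphthalene 3 pools held 339 to 384 reads of CYP1C1 and pool B held 92. Over the 22 chemicals CYP1C1 was lower at an unadjusted p under 0.05 in 4 and higher in 0. These comparisons share the same 5 control pools, and the share of all genes with such counts was not computed.

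CYP1C2, the neighbouring gene of the same subfamily, was called in 0 chemicals by limma and by voom, with 0 at an unadjusted p under 0.05 by either. Its log2FC ran from −0.57 to 0.68. Exposed pools had 2.67 to 28.0 CPM (median 14.0) and control pools 7.92 to 21.7 CPM (median 9.52). Whether reads of one CYP1C gene could be counted for the other was not tested, since the probe sequences were not used here.

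CYP1D1, which is a pseudogene in humans, was in no case higher at an unadjusted p under 0.05 and was lower in 4 chemicals. The comparisons share their control pools, and the share of all genes with such counts was not computed. In 1,2-dimethylnaphthalene it had 18.0, 7.96, 17.0 and 15.1 CPM, against 28.7, 42.7, 16.3, 24.7 and 33.4 CPM in the control pools. Control day 2 pool A overlapped the exposed pools. The log2FC of −0.99 (standard error 0.29, adjusted p = 0.0457 by limma) passed the adjusted p, as 2.12% of genes did with this chemical, and fell short of the fold threshold. Leaving out any single pool other than control day 2 pool A put the adjusted p at 0.0503 to 0.270. In this chemical CYP1D1 was called without control day 2 pool A (−1.18), against the day 1 controls alone (−1.32, adjusted p = 0.0415), and with the pool letter as a block (−1.08). A like decrease was seen in 1,4-dimethylnaphthalene, at 14.2 ± 2.88 CPM against 29.1 ± 9.83 CPM in the control (SD, n = 4 and 5). Its log2FC was −0.98 (standard error 0.29, adjusted p = 0.0660 by limma), and it too was called without control day 2 pool A.

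**Figure D2:**
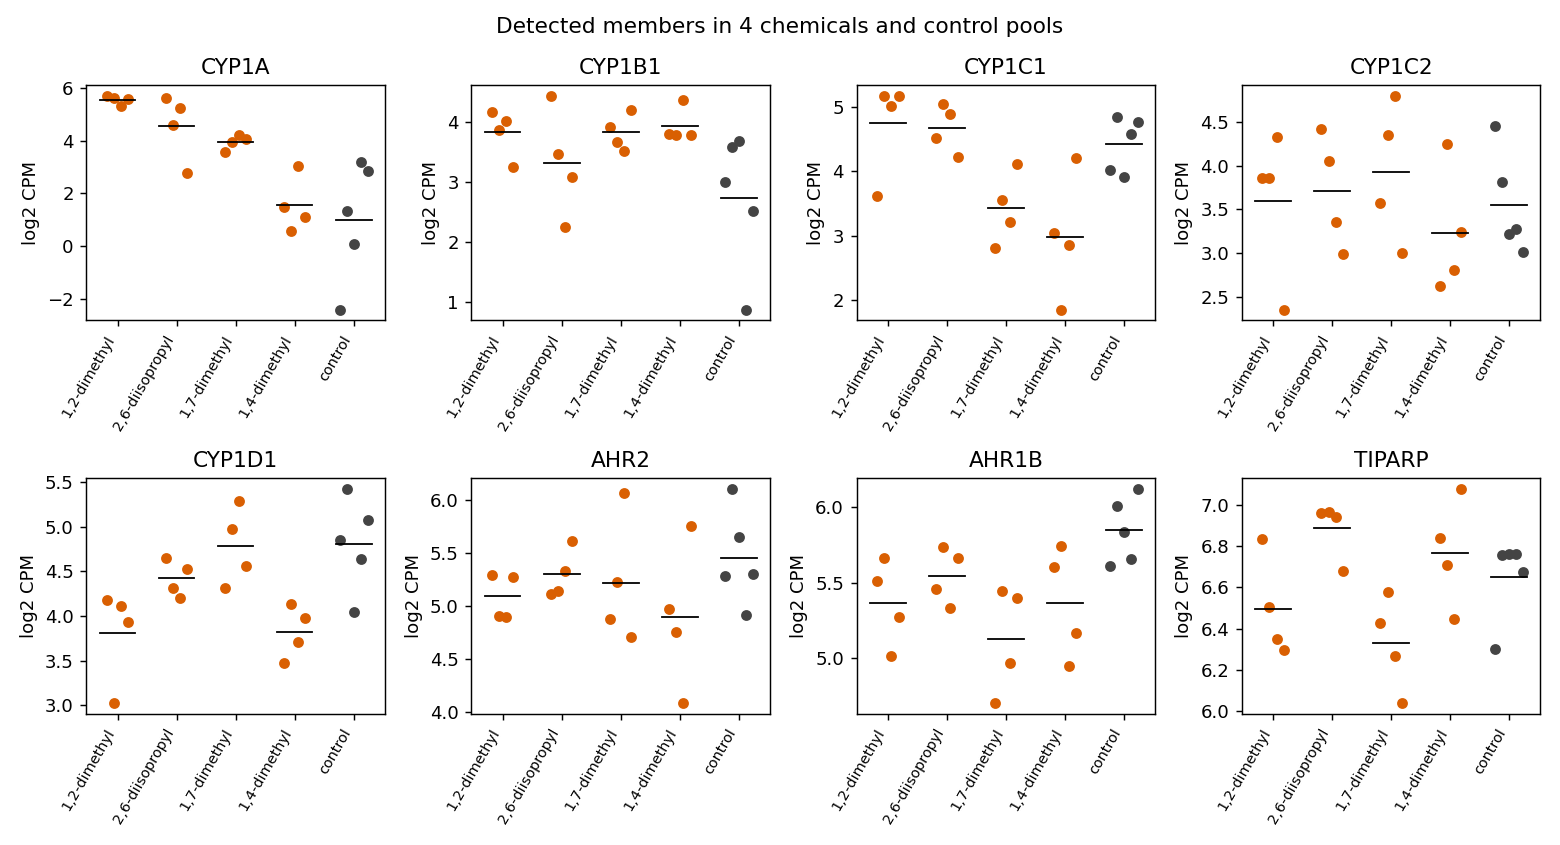
Levels of the 8 members with reads in nearly all pools, in log2 CPM, in 1,2-dimethylnaphthalene, 2,6-diisopropylnaphthalene, 1,7-dimethylnaphthalene and 1,4-dimethylnaphthalene, with the control at the right of each panel. Points are pools and lines are means, and each panel has its own axis. CYP1A has its highest means in the first 3 chemicals, where only pool E of 2,6-diisopropylnaphthalene overlaps the control. CYP1C1, CYP1C2, CYP1D1, AHR2 and TIPARP overlap the control in all 4. All CYP1B1 pools lie above the control in 1,4-dimethylnaphthalene only, and all AHR1B pools lie below it in 1,7-dimethylnaphthalene only.

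AHR2, the receptor that mediates most dioxin effects in zebrafish, had 15.1 to 66.9 CPM in the exposed pools (median 34.8) and 29.8 to 68.6 CPM in the control pools (median 39.1). It was called in 0 of 22 chemicals by limma and by voom, and at an unadjusted p under 0.05 it was lower in 4 and higher in 0 (4 by voom). Here too the control pools are shared and the share of all genes with such counts was not computed. The lowest level was in 2,6-diethylnaphthalene, with 26.4, 27.3, 26.0 and 15.1 CPM, against 38.7, 68.6, 50.0, 29.8 and 39.1 CPM in the control pools. The groups did not overlap, as for 2.74% of genes in this direction with this chemical, and the log2FC was −0.91 (standard error 0.26, adjusted p = 0.0472 by limma; 1.53% of genes passed the adjusted p). Without control day 2 pool B it was −1.05 (adjusted p = 0.0269) and was called, and without any other pool the adjusted p was 0.0533 to 0.178.

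AHR1B, a further functional receptor of zebrafish, had a log2FC above 0 in 3 of 22 chemicals and was lower at an unadjusted p under 0.05 in 7. It too was called in 0 chemicals by limma and by voom (9 at an unadjusted p under 0.05 by voom). All 22 comparisons share the same 5 control pools. The shares of all genes above 0 in as few chemicals, or lower in as many, were not computed. These counts thus cannot show a trend particular to AHR1B. Exposed pools had 18.5 to 99.1 CPM (median 45.4) and control pools 48.7 to 69.4 CPM (median 56.9). In 2-butylnaphthalene it had 42.3, 30.7, 37.3 and 19.2 CPM, all below the control pools of 48.7, 64.1, 56.9, 50.3 and 69.4 CPM, as for 2.22% of genes with this chemical. The log2FC was −0.88 (standard error 0.24, adjusted p = 0.0379 by limma), which passed the adjusted p, as 1.69% of genes did, and not the fold threshold. Without 2-butylnaphthalene pool A it was −1.03 and was called, and without pool E it was −0.65 (adjusted p = 0.272).

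The AHR1B pools also lay below all control pools in 1,3-dimethylnaphthalene (log2FC −0.65, adjusted p = 0.195 by limma) and in 1,7-dimethylnaphthalene (log2FC −0.72, adjusted p = 0.0609 by limma), where 2.38% and 3.42% of genes did so. The 3 chemicals with CYP1A called had AHR2 at log2FC of −0.36 to −0.15, none past the test.

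TIPARP, an ADP-ribosyltransferase that modifies and represses the AHR in mammals, was called in 0 chemicals by limma and by voom, with 0 at an unadjusted p under 0.05 by either. Exposed pools had 46.2 to 162 CPM (median 97.2) and control pools 78.6 to 108 CPM (median 108). Its log2FC ran from −0.42 to 0.24. In 2,6-diisopropylnaphthalene it was 0.24 (95% interval −0.21 to 0.69), in 1,2-dimethylnaphthalene −0.15 (95% interval −0.60 to 0.30) and in 1,7-dimethylnaphthalene −0.32 (95% interval −0.77 to 0.13).

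The AHR repressors AHRRA and AHRRB were at the limit of detection. All 5 control pools had 0 reads of either gene, which allows up to 3 reads per pool, or 0.247 to 0.358 CPM. AHRRA had reads in 2 of 88 exposed pools, 4 reads in 2,6-diisopropylnaphthalene pool B and 1 read in the 2,4,5-trimethyl isomer pool B. AHRRB had reads in 6 exposed pools of 6 chemicals, from 1 read in 1-ethylnaphthalene pool E to 20 reads in the 2,4,5-trimethyl isomer pool C. In each of these groups the other 3 pools had 0 reads, and neither gene was called. Each had 1 chemical at an unadjusted p under 0.05, in 2,6-diisopropylnaphthalene for AHRRA and in the 2,4,5-trimethyl isomer for AHRRB, and 0 by voom.

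**Figure D3:**
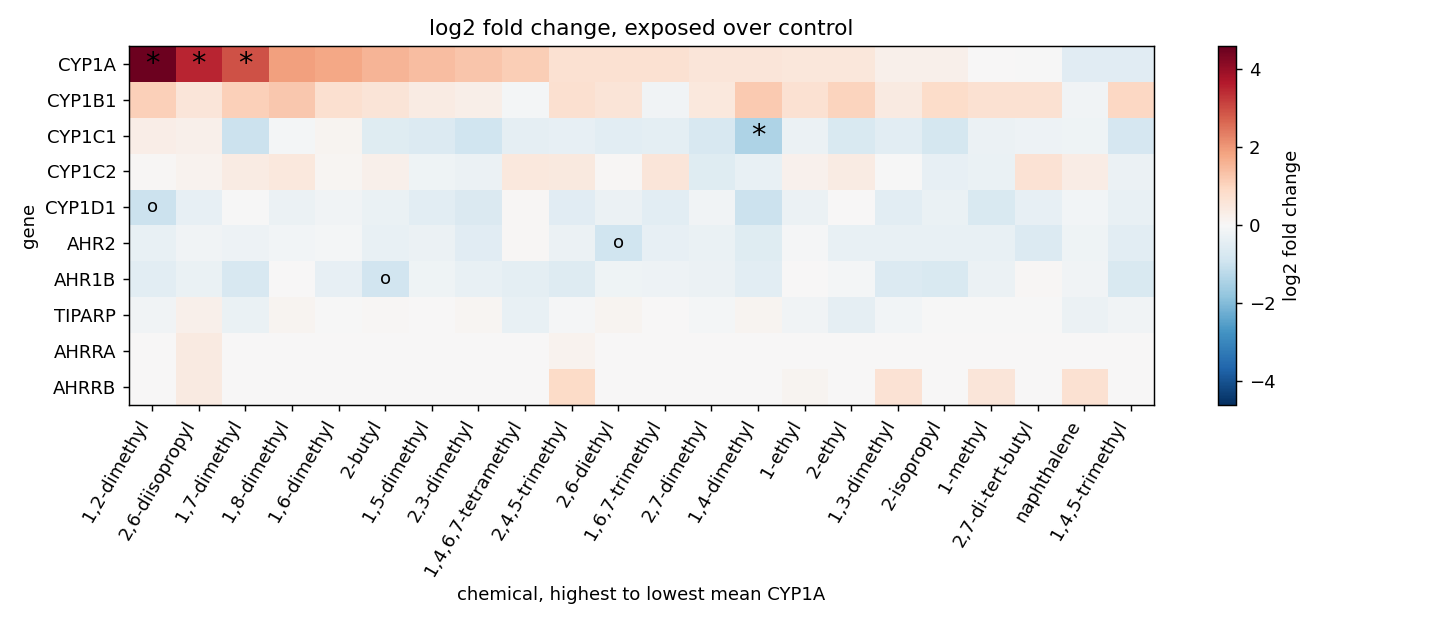
The log2 fold change of each member (rows) in each chemical (columns, highest to lowest mean CYP1A), exposed over control, in colour. Stars mark the 4 calls and circles the 3 tests that passed the adjusted p without reaching the fold threshold. The stars are CYP1A in 3 chemicals and CYP1C1 in 1,4-dimethylnaphthalene.

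Over the 93 pools, after removing group means, Pearson's r between pairs of the 8 detected members lay between −0.29 (CYP1B1 and CYP1C1) and 0.34 (AHR2 and CYP1C2). For CYP1A it was 0.14 with TIPARP, 0.09 with CYP1C1 and −0.05 with CYP1B1. These are descriptions over pools that share normalization and day correction.

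The chemicals were next compared directly, in 32 pairs of the same exposure day that differ by the position of a methyl group (19 pairs), by 1 methyl group more (10) or by the alkyl chain (3, with its position in 1). No member was called in any pair when p was adjusted over all genes (0.0927% of the gene by pair tests were). At an unadjusted p under 0.05 there were 8 pairs for CYP1A and 33 of 320 member by pair tests, against 8.79% of the tests of all genes. voom called 3 pairs, all for CYP1A (0.102% of the tests of all genes). With the p values of CYP1A adjusted over the 32 pairs alone, 6 pairs passed. Under that rule 1.55% of the tests of all genes passed, and 1.96% of genes had at least 6 such pairs.

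In 3 of the 6, 1,2-dimethylnaphthalene differed from its counterpart by the position of a methyl group. CYP1A averaged 5.54 ± 0.16 log2 CPM in 1,2-dimethylnaphthalene and 1.59 ± 0.13 in 2,7-dimethylnaphthalene (SD, n = 4 each), a difference of 3.96 (95% interval 2.04 to 5.87, adjusted p = 0.00331 over the pairs and 0.0902 over all genes by limma). The difference from 2,3-dimethylnaphthalene was 3.24 (95% interval 1.32 to 5.16, adjusted p = 0.0130 over the pairs) and that from 1,8-dimethylnaphthalene was 2.63 (95% interval 0.71 to 4.55, adjusted p = 0.0418 over the pairs by limma). No control pool enters these means, although the error is pooled over all 23 groups.

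1,7-dimethylnaphthalene was higher than 1-methylnaphthalene, which lacks the methyl group at position 7, by 2.93 (95% interval 1.01 to 4.84, adjusted p = 0.0263 over the pairs by limma), with 3.94 ± 0.27 log2 CPM in 1,7-dimethylnaphthalene and 1.02 ± 1.13 in 1-methylnaphthalene (SD, n = 4 each). It was higher than 1,3-dimethylnaphthalene by 2.69, with 1.25 ± 2.39 log2 CPM in 1,3-dimethylnaphthalene (adjusted p = 0.0418 over the pairs by limma). Without 1,7-dimethylnaphthalene pool C, D or E, 3 of the 32 pairs passed in place of 6.

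The remaining isomers of the same day could not be set apart from 1,7-dimethylnaphthalene. Its difference from 1,4-dimethylnaphthalene was 2.39 (95% interval 0.47 to 4.31, adjusted p = 0.0614 over the pairs by limma), from 1,5-dimethylnaphthalene 1.52 (−0.40 to 3.44) and from 1,6-dimethylnaphthalene 1.13 (−0.78 to 3.05). The intervals against the 1,5- and 1,6-isomers include 0 as well as differences above 3.

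2,6-diisopropylnaphthalene and 2,7-di-tert-butylnaphthalene, which carry branched chains at different positions, differed by 3.54 (95% interval 1.62 to 5.46, adjusted p = 0.00719 over the pairs and 0.460 over all genes, limma). CYP1A averaged 4.53 ± 1.26 log2 CPM in 2,6-diisopropylnaphthalene and 0.99 ± 2.34 in 2,7-di-tert-butylnaphthalene (SD, n = 4 each), and the lowest pool of the diisopropyl compound lay below the highest of the di-tert-butyl compound (6.57 and 8.41 CPM). The single chains showed smaller differences, 1.05 between 2-butylnaphthalene and 2-ethylnaphthalene (−0.87 to 2.97) and 1.03 between 2-ethylnaphthalene and naphthalene (−0.89 to 2.95).

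Of the 10 pairs that differ by 1 methyl group more, 1 passed. The 1,4,5-trimethyl isomer minus 1,8-dimethylnaphthalene gave −2.41 (95% interval −4.33 to −0.50, adjusted p = 0.0614 over the pairs, limma). 1-methylnaphthalene and naphthalene differed by 0.52 (95% interval −1.40 to 2.44). Of the other members, CYP1C1 passed in 1 pair after adjustment over the pairs, where 1,6-dimethylnaphthalene (4.55 ± 0.28 log2 CPM) was higher than 1,4-dimethylnaphthalene (2.99 ± 0.96; SD, n = 4 each) by 1.56 (95% interval 0.73 to 2.39, adjusted p = 0.0121 over the pairs by limma).

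**Figure D4:**
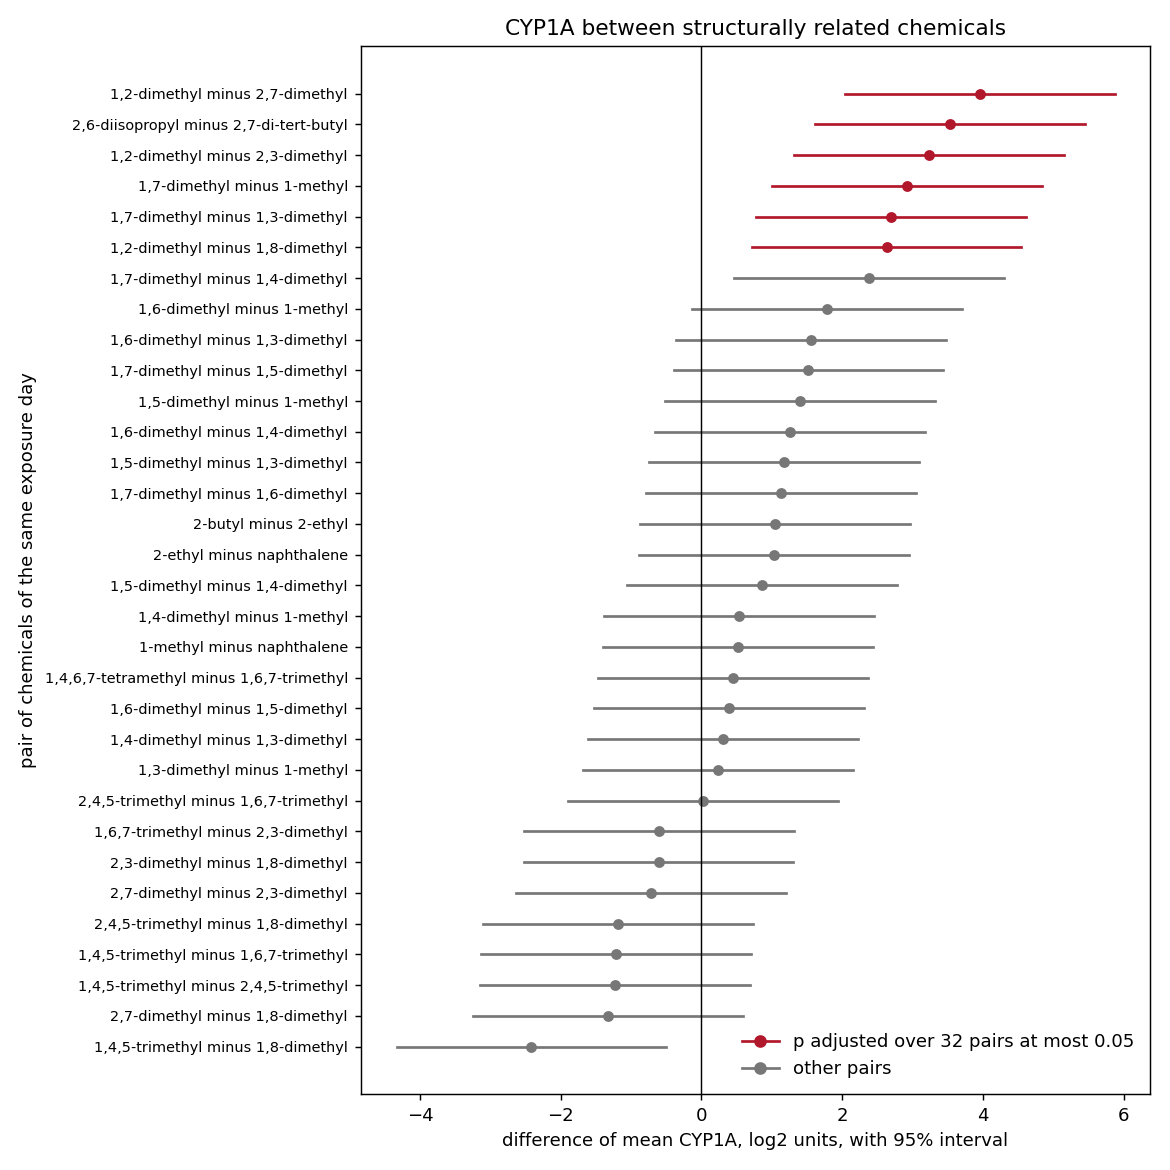
Difference of mean CYP1A between 32 pairs of related chemicals of the same exposure day, in log2 units, first minus second as named, with 95% intervals as lines. Red pairs had a p of at most 0.05 after adjustment over the pairs. The 6 red pairs hold 1,2-dimethylnaphthalene (3), 1,7-dimethylnaphthalene (2) or 2,6-diisopropylnaphthalene (1) as the higher chemical.

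The partners of the receptor (dimer partners such as ARNT and ARNT2, chaperones and coactivators) were measured in 12 of 24 listed genes. None was called in the 3 chemicals with CYP1A called. The median of their log2FC was −0.08 in 1,2-dimethylnaphthalene (−0.01 over all genes), −0.17 in 2,6-diisopropylnaphthalene and −0.20 in 1,7-dimethylnaphthalene (0.00 over all genes in both). Of 15 measured genes of the AHR battery outside the members, 1 was called in 2,6-diisopropylnaphthalene, 1 in 1,7-dimethylnaphthalene and 0 in 1,2-dimethylnaphthalene. Of all genes, 0.163%, 1.34% and 0.359% were called in these chemicals. Both calls were of SLC2A1B, a glucose transporter. The median log2FC of the 15 genes was −0.35 in 2,6-diisopropylnaphthalene, −0.11 in 1,7-dimethylnaphthalene and −0.09 in 1,2-dimethylnaphthalene. Their mean log2 CPM was 3.23 to 3.44 in the 2,6-diisopropylnaphthalene pools, below the 3.47 to 3.77 of the control pools. In 1,2- and 1,7-dimethylnaphthalene it overlapped the control pools. The share of single genes below all control pools in 2,6-diisopropylnaphthalene was not computed.

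SLC2A1B had 2.25, 15.6, 20.9 and 15.4 CPM in 1,7-dimethylnaphthalene, against 2.87, 4.27, 4.12, 0.588 and 2.89 CPM in the control pools (log2FC 1.98, standard error 0.59, adjusted p = 0.0299 by limma). It was called higher in 13 of 22 chemicals. The share of genes called in as many chemicals was not computed, while 3.42% were called at least once. SLC2A1B is not among the most frequent differentially expressed genes that the paper names. The cause of this difference from the paper was not tested. In 1,2-dimethylnaphthalene SLC2A1B was not called (log2FC 1.56, adjusted p = 0.175 by limma), although its pools, at 4.49 to 11.4 CPM, lay above all control pools, at 0.588 to 4.27 CPM. Such a separation was seen in this direction for 2.71% of genes with this chemical. The call in 1,7-dimethylnaphthalene was lost without exposed pools C, D or E or control day 1 pool A or day 2 pool B (log2FC 1.53 to 2.03, adjusted p 0.0526 to 0.130).

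None of 17 measured oxidative stress genes was called in these 3 chemicals, with median log2FC of 0.07 in 1,2-dimethylnaphthalene, −0.10 in 2,6-diisopropylnaphthalene and 0.16 in 1,7-dimethylnaphthalene. In 1,7-dimethylnaphthalene 3 of them passed the adjusted p, as 6.1% of all genes did, without reaching the fold threshold: GSTP1, a glutathione transferase (log2FC 0.46, adjusted p = 0.0141), HMOX1A, a haem oxygenase (0.57, adjusted p = 0.0347), and SOD2, the mitochondrial superoxide dismutase (0.89, adjusted p = 0.0170, all by limma). None of the 25 cytochrome P450 genes outside CYP1 was called in the 3 chemicals.

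The 5 genes whose mean level over the 22 chemicals was most like that of CYP1A were TAF9 (Pearson's r 0.63), CYP4F3 (0.61), SFXN5A (0.61), NAB1B (0.60) and HADH (0.59). CYP4F3 and SFXN5A had reads in 1 pool of the 93, a pool of 1,2-dimethylnaphthalene, so their likeness is that of this single chemical. TAF9 and HADH had reads in every pool and kept r of 0.56 and 0.55 without 1,2-dimethylnaphthalene. The nearest detected member was CYP1C1 (r 0.41, and 0.22 without 1,2-dimethylnaphthalene), which stood at place 90 of all genes.

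Markers of cell types were compared in summed CPM between the control and each of 1,2-dimethylnaphthalene, 2,6-diisopropylnaphthalene, 1,7-dimethylnaphthalene and 1,4-dimethylnaphthalene. Of 8 lists, 7 had a measured gene, and the exposed and control ranges of the sums, which abundant genes dominate, overlapped in all 28 comparisons. In mean log2 CPM over a list's genes, which weights them equally, 3 of the 28 did not overlap. The endothelial mean was 3.53 to 3.87 in 2,6-diisopropylnaphthalene and 3.05 to 3.84 in 1,7-dimethylnaphthalene, against 3.93 to 4.47 in the control pools. The mean of INS and PRSS1, markers of the pancreas, was 3.55 to 4.03 in 1,7-dimethylnaphthalene and 4.24 to 5.07 in the control pools. In 1,2-dimethylnaphthalene both means overlapped the control pools (endothelial 2.75 to 3.95, INS and PRSS1 2.58 to 4.59). Its endothelial overlap was narrow, with a highest pool of 3.95 against a lowest control pool of 3.93. In 1,4-dimethylnaphthalene both means overlapped too (endothelial 3.09 to 4.09, INS and PRSS1 2.77 to 4.84). Of single genes, 3.42% lay below all control pools in 1,7-dimethylnaphthalene. For 2,6-diisopropylnaphthalene that share was not computed. There 3 of the 4 endothelial genes had a log2FC below 0, while their sum was 133 to 168 CPM, against 130 to 167 CPM in control pools. In CPM, the 4 measured endothelial markers, CDH5, KDR, PECAM1 and TEK, summed to 102 to 152 CPM in 1,7-dimethylnaphthalene and to 130 to 167 CPM in control pools, with a log2FC below 0 for all 4 (range −2.06 to −0.03, none called). Of the liver markers, TFA and TTR were at 0 reads in most pools. The part of cell composition in the CYP1A levels was not tested.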

How the data were processed

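Per the study's methods, the authors aligned TempO-Seq reads to the probes with TempO-SeqR and added up probes per gene. ComBat_seq then adjusted these for the day of exposure, and scaling was by upper quartile. The deposited table holds log2 CPM for 93 of 94 labelled samples, on a scale with a prior count of 2, and the submitters' notes name edgeR and GRCz11. The authors' own comparison table (fold changes and their tests) was not used. Whole reads were recovered within 0.02 reads for 100% of values.

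limma 3.58.1 in R 4.3.3 (lmFit, eBayes) was fitted to the deposited log2 values of 93 pools in 23 groups with no covariate, with Benjamini-Hochberg adjustment over 3068 genes. P-values of pairs were also adjusted over 32 pairs. The exact permutation test compared mean log2 values. Replicates are pools grouped by vial, and the 5 collected per treatment cannot all have had a vial of their own. Whether the pools used shared a vial is not said. The p-values thus measure the spread between pools. Members and gene lists were chosen with earlier results of these data known. The named genes are all members, the 5 genes most like CYP1A, pathway genes called in 1,7-dimethylnaphthalene and, pool by pool, the chemicals with the 3 highest and 3 lowest CYP1A means. GSTP1, HMOX1A and SOD2 were chosen after their values were seen. Alternatives were each pool left out, the pool letter as a block, same-day controls, separate fits, voom, a variance trend, pseudocounts of 1 and 4, a filter of 1 CPM in 4 samples, median centring, scaling by total reads and no fold threshold. Sequences and coordinates were not used here.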

Additional observations from a re-analysis of the deposited data

Results flagged for a closer look

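Sets were groups of 4 or 5 pools with any spread. A member's highest or lowest value stood apart from the others by more than Dixon's 95% limit in 25 of 192 sets (13.0%). About 1 in 20 sets of normally distributed values pass this limit. Of the 25 sets, 8 were the repressors, whose other pools were all at 0 reads, so that they passed it by construction. The 13.0% thus cannot be set directly against the 1 in 20. On the log2 CPM scale AHRRA was at −0.69 in 2,6-diisopropylnaphthalene pool B and −1.72 in the 2,4,5-trimethyl isomer pool B. AHRRB was at −0.67 in 2,6-diisopropylnaphthalene pool C, 0.34 in 1,3-dimethylnaphthalene pool A, −0.10 in 1-methylnaphthalene pool A, 0.36 in naphthalene pool D, 1.19 in the 2,4,5-trimethyl isomer pool C and −1.82 in 1-ethylnaphthalene pool E.

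CYP1A stood apart in 1,6-dimethylnaphthalene pool B (1.14, others 3.19 to 3.47), 2,6-diethylnaphthalene pool C (2.71, others 1.36 to 1.42) and 2,3-dimethylnaphthalene pool D (2.57, others 2.19 to 2.24). CYP1C1 did so in 6 groups, more than any other detected member. It was low in 1-methylnaphthalene pool C (3.86), 1,5-dimethylnaphthalene pool B (2.34), 2-ethylnaphthalene pool B (2.54) and 1,2-dimethylnaphthalene pool B (3.63), and high in 1,3-dimethylnaphthalene pool A (4.76) and the 1,6,7-trimethyl isomer pool E (4.74).

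AHR1B was high in the 1,4,6,7-tetramethyl compound pool C (5.84). AHR2 was high in 2-isopropylnaphthalene pool E (5.52) and low in 2,6-diethylnaphthalene pool E (3.93), the group with its lowest mean. CYP1B1 was high in 1,4-dimethylnaphthalene pool C (4.36), CYP1C2 low in naphthalene pool D (3.25) and CYP1D1 low in 2,3-dimethylnaphthalene pool C (3.82). TIPARP was low in 2,6-diisopropylnaphthalene pool E (6.68) and in control day 1 pool A (6.30), the control pool with 0 reads of CYP1A.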

How the results depend on the processing

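Of 690 values recomputed under the alternatives, 598 kept their direction and side of the threshold, or a count within 1.5 times. None of the called values turned round, and the cause of the changes was not tested. Most of the 690 were counts recomputed without each of the 93 pools, and a count that fell from 3 to 2 was taken as unchanged. Leaving out pools of the compared groups kept the CYP1A call in 9 of 9 cases in 1,2-dimethylnaphthalene and 3 of 9 in 2,6-diisopropylnaphthalene. It was kept in 2 of 9 in 1,7-dimethylnaphthalene, as was the CYP1C1 call in 1,4-dimethylnaphthalene. With a separate fit of each comparison, CYP1A kept log2FC of 4.53 in 1,2-dimethylnaphthalene, 3.52 in 2,6-diisopropylnaphthalene and 2.93 in 1,7-dimethylnaphthalene but was called in 0 chemicals (adjusted p 0.123, 0.361 and 0.277), 0 members were called, and CYP1A was called in 3 pairs. With same-day controls it was called in 1 chemical, with log2FC of 2.50 in 2,6-diisopropylnaphthalene and 1.91 in 1,7-dimethylnaphthalene, and there were 2 member calls, CYP1A and CYP1D1 in 1,2-dimethylnaphthalene. CYP1A was called in 3 pairs with voom, in 3 with log2(CPM + 1) and in 7 with log2(CPM + 4). Without the fold threshold there were 7 member calls, and with voom 3. The members that differed among the groups were 2, CYP1A and AHR1B, with a variance trend, log2(CPM + 4), median centring or the pool letter as a block.

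Leaving out each pool in turn, log2FC of CYP1A ran from 3.68 to 5.07 in 1,2-dimethylnaphthalene, 2.67 to 4.11 in 2,6-diisopropylnaphthalene and 2.08 to 3.47 in 1,7-dimethylnaphthalene. The chemicals with CYP1A called numbered 1 to 3, member calls 1 to 5, members that differed among the groups 1 to 2, pairs adjusted over the pairs 3 to 8 and pairs over all genes 0. CYP1A was called in 1 chemical, 1,2-dimethylnaphthalene, without control day 1 pool A, day 1 pool C or day 2 pool A. The exact permutation p of CYP1A in 1,7-dimethylnaphthalene ran from 0.0286 to 0.0714. CYP1C1 in 1,4-dimethylnaphthalene was lost under 6 of 11 other alternatives (adjusted p 0.0381 to 0.324 over all), and SLC2A1B in 1,7-dimethylnaphthalene under 4 of 11 (0.0254 to 0.298). No member passed the adjusted p between control days with voom, at 3 and 2 pools. So few pools cannot show that the days agree, and the limma difference of CYP1A was 2.56 (standard error 1.71). Of the other alternatives, only leaving out each control pool was run for that comparison.

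Pool letters are replicate letters and pair nothing in the labels. Of 828 pairs of same-lettered pools of different groups, 3 had deviations correlated above 0.1 (median 0.00), against 10 of 3308 other pairs, and the block called CYP1A in the same 3 chemicals. AHRRA and AHRRB had 0 to 20 reads a pool, where a low level and none cannot be told apart. For CYP1A the SD within groups, 1.37 over all 23 groups, limits what was detectable.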
